A study of Homo sapiens with 4 samples.

Results

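The SIX-EYA gene family was examined in SK-N-BE(2) cells, a human neuroblastoma cell line, after knockdown of METTL14, a core subunit of the nuclear complex that writes N6-methyladenosine (m6A) on messenger RNA. The members were SIX2, SIX3, SIX4, SIX5, EYA1, EYA2, EYA3, EYA4 and DACH1, found by gene symbol among the 60671 gene IDs of the count table, and all 9 were present. They were chosen by their counts in the shMETTL14 against shNC contrast together with their known kinship, so their values in that contrast are given as a description and no test of the family is made from them. RNA sequencing had been carried out on 2 libraries of cells carrying the non-targeting hairpin (shNC) and 2 libraries of cells carrying a hairpin against METTL14 (shMETTL14). All 4 libraries came from this 1 tumour line. The series record calls the cells transfected, while the study's methods give a lentiviral vector for its knockdowns, and which was used for the sequenced cells is not settled by the sources used here. Which METTL14 hairpin was sequenced is not given in the sources used here. Nothing in them says that the 2 libraries of a group were separate cultures, so the spread between them may be technical.

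SIX-family proteins are homeodomain transcription factors. EYA proteins bind no DNA themselves: they are carried to promoters by SIX-family partners, act there as coactivators, and also have a tyrosine phosphatase activity. DACH1 is a DNA-associated corepressor of the SKI family. The fly counterparts of these proteins form the retinal determination network together with PAX6-like factors, and in vertebrates the same cassette acts in eye, ear, kidney, muscle and cranial placode development. SIX3 itself is best known for its part in forebrain and eye formation.

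Total counts in genes ranged from 18925786 to 19886214 per library, and the members together took 7677 and 7401 counts in the controls and 6329 and 6319 after knockdown. METTL14 was read 753 and 754 times in shNC and 303 and 321 times in shMETTL14, so the labels and the target matched in all 4 libraries. Its level was 38.6 ± 1.13 CPM (counts scaled to library size, itself adjusted by the trimmed mean of M values, TMM; SD, n = 2) in shNC and 16.1 ± 0.851 in shMETTL14, which is 41.7% of the control. Of 9 neuroblastoma markers, MYCN and DBH among them, none was at or under 3 counts in every library. Their summed level per kilobase of exon was 1750 to 1760 CPM in shNC and 1870 to 1900 in shMETTL14. MYCN alone stood at 1010 ± 11.1 in shNC and 1220 ± 11.1 in shMETTL14 (SD, n = 2), so the sum mostly follows MYCN. By edgeR's quasi-likelihood test with Benjamini-Hochberg adjustment, 2 of these 9 were called higher and 6 lower, where 52.5% of all tested genes were called. The Schwann cell list, with SOX10 and CDH19 at or under 3 counts in every library, summed to 2.77 to 3.16 in shNC and 1.96 to 2.42 in shMETTL14. Blood and vessel markers summed to 0.445 to 0.46 and 0.309 to 0.366, with CD3E, CD68, HBB and PECAM1 at or under 3 counts. Mesenchymal markers summed to 508 to 515 and 503 to 514, with only PRRX1 at that floor. VIM alone stood at 376 ± 10.3 in shNC and 384 ± 5.67 in shMETTL14, so this sum mostly follows VIM. Of 9 mesenchymal markers tested, 1 was called higher and 6 lower, beside the 52.5% of all tested genes. Of the lower ones, YAP1 had 16 and 10 counts in shNC and 6 and 0 in shMETTL14. Only its shNC libraries reached the 10 counts of the filter. What part these shifts had in the values below was not tested. In bulk RNA, fewer cells with a transcript and less transcript per cell cannot be told apart.

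The SIX-family genes are close relatives, and the counts of each depend on reads that can be placed on 1 of them. The coding sequences are most alike over the homeobox, and the same 60 coding bases are given here for SIX2, SIX3, SIX4 and SIX5, aligned without gaps and with capitals at the bases that differ from SIX2. They were taken from the GENCODE 29 transcripts.
SIX2, coding bases 481 to 540: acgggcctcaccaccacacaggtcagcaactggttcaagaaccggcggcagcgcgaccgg
SIX3, coding bases 727 to 786: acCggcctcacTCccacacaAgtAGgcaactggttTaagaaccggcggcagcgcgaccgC
SIX4, coding bases 778 to 837: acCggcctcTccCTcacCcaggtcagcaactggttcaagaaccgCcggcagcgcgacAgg
SIX5, coding bases 712 to 771: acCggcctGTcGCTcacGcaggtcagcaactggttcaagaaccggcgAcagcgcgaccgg
Identity with SIX2 over this window was 86.7% for SIX3 (52 of 60 bases), 88.3% for SIX4 (53 of 60) and 86.7% for SIX5 (52 of 60). Even here the capitals are scattered, and the longest run of identical bases between any pair of SIX-family transcripts was 29, between SIX2 and SIX5. Across all member pairs the longest was 35 bases, between EYA1 and EYA4. Reads were sequenced to 150 bases, so an untrimmed read lying wholly in one of these transcripts matched no other member without a mismatch.

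Over the whole experiment 16309 genes had enough counts to test, and 52.5% of them passed an adjusted p of 0.05, 27.2% higher and 25.3% lower in shMETTL14. Of the 9 members 8 were tested, and 3 of these passed, all lower: SIX3, EYA3 and DACH1. The other 5 tested members did not pass, and EYA2 had too few counts to test. The median log2 fold change over the 8 tested members was -0.09, against -0.00 over all tested genes. The groups did not overlap in CPM for 5 of the 8 tested members (SIX3, EYA1, EYA3, EYA4 and DACH1), a condition that 75.5% of all tested genes met. Since these libraries chose the family, nothing is read from these counts.

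**Figure D1:**
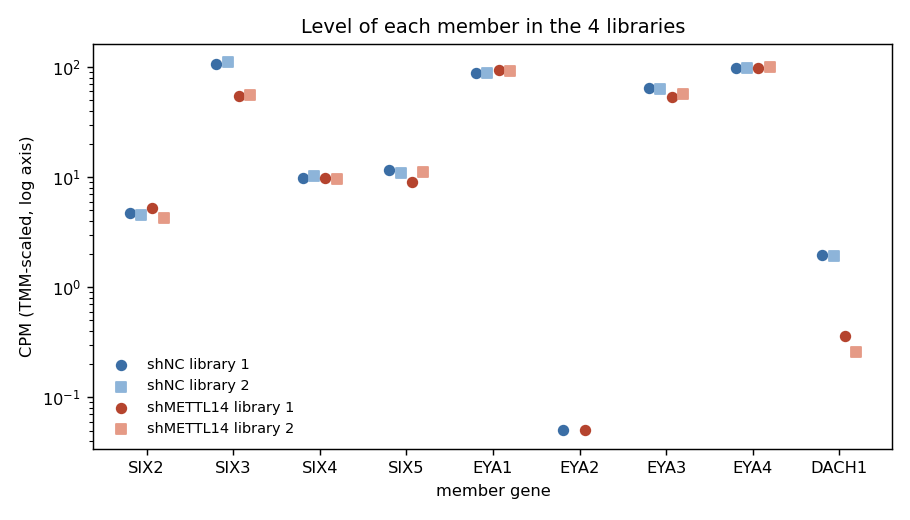
Level of each member in the 4 libraries in TMM-scaled CPM (log axis), with shNC in blue and shMETTL14 in red and 1 symbol per library. SIX3, EYA3 and DACH1 lie lower in both shMETTL14 libraries, and EYA2, with 1 count in each of 2 libraries and 0 in the others, shows only the 2 libraries with a count.

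SIX3 was the most abundant SIX-family gene and the one with the clearest difference. It spans chr2:44941898-44946077 on the plus strand (GRCh38, GENCODE 29), has 2 exons and overlaps no other gene. It was read 2133 and 2114 times in the shNC libraries and 1069 and 1065 times in the shMETTL14 libraries. That corresponds to 107 and 110 CPM against 54.6 and 55.3 CPM, so both knockdown libraries lay at about the same level, far below both controls. The mean was 109 ± 2.39 CPM (SD, n = 2) in shNC and 55.0 ± 0.523 CPM in shMETTL14, or 50.6% of the control, with a log2 fold change of -0.98 (SE 0.0499). Of all tested genes, 6.76% had a lower log2 fold change. Across 7 other scalings, filters and models the value ran from -1.05 to -0.97, and leaving out each library in turn gave -1.01 to -0.96.

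SIX2, SIX4 and SIX5 were counted far less often and showed no comparable difference. SIX2, a factor that maintains nephron progenitors in the kidney, lies at chr2:45005161-45009430 on the minus strand, 59083 bases from SIX3. Its counts were 94 and 86 in shNC and 103 and 81 in shMETTL14, so the controls fell between the knockdown libraries. The means were 4.60 ± 0.159 and 4.73 ± 0.744 CPM, and the 95% interval of its log2 fold change ran from -0.34 to 0.42. The sign of the SIX2 value of 0.04 turned under upper-quartile scaling, under library size alone and without shMETTL14 library 1.

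SIX4, a broadly expressed member with roles in muscle development, lies at chr14:60709528-60724348 on the minus strand and has 3 exons. It had 195 counts in each shNC library and 194 and 186 in shMETTL14, or 9.98 ± 0.283 against 9.79 ± 0.172 CPM. The groups overlapped, and the 95% interval of the log2 fold change was -0.28 to 0.22. Its value of -0.03 turned to 0.005 without shNC library 2.

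SIX5, which neighbours the myotonic dystrophy kinase gene DMPK, lies at chr19:45764785-45769226 on the minus strand. It had 231 and 209 counts in shNC and 178 and 216 in shMETTL14, so 1 knockdown library lay below both controls and the other between them. The means were 11.3 ± 0.477 and 10.2 ± 1.51 CPM, with a log2 fold change of -0.15 and a 95% interval of -0.41 to 0.11. The 2 knockdown libraries pulled apart: the value was -0.30 without library 2 of shMETTL14 and 0.00 without library 1. Of the 3556 exonic bases of SIX5, 2110 are also exonic in 1 of 2 genes on the opposite strand, DM1-AS and AC074212.1. The strand setting of the counting is not given in the sources used here, so the SIX5 counts are uncertain.

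Among the EYA genes only EYA3 passed. It spans chr1:27970344-28088696 on the minus strand, overlaps no coding gene, and encodes a phosphatase known for acting on the histone variant H2AX in the DNA damage response. Its counts were 1295 and 1220 in shNC and 1045 and 1084 in shMETTL14, equal to 65.0 and 63.7 against 53.4 and 56.3 CPM. Both knockdown libraries lay below both controls, and the mean went from 64.3 ± 0.891 to 54.8 ± 2.09 CPM (SD, n = 2), or 85.2% of the shNC level. Its log2 fold change of -0.23 (SE 0.0563) was a modest size in this data set, since 31.5% of all tested genes had a lower one. It ran from -0.30 to -0.22 across 7 alternatives and from -0.26 to -0.19 as each library was left out.

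EYA1 and EYA4 had the highest CPM of the EYA genes. EYA1, the branchio-oto-renal syndrome gene, lies at chr8:71197433-71592025 on the minus strand and had 88.2 and 87.9 CPM in shNC against 93.0 and 91.4 CPM in shMETTL14. EYA4, mutated in a form of inherited hearing loss, lies at chr6:133240598-133532120 on the plus strand and had 96.9 and 97.0 CPM against 97.6 and 99.9 CPM. In both genes the 2 knockdown libraries lay just above the 2 controls, but the gaps were small. The log2 fold change was 0.07 for EYA1, with a 95% interval of -0.03 to 0.16, and 0.03 for EYA4, with an interval of -0.07 to 0.12. Neither sign was stable to scaling: upper-quartile scaling gave -0.001 for EYA1 and -0.04 for EYA4, and library size alone gave -0.02 for EYA4.

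EYA2, at chr20:46894624-47188844 on the plus strand, was hardly read. It had 1 and 0 counts in shNC and 1 and 0 in shMETTL14, under the 3 counts per library that correspond to 0.151 to 0.157 CPM here. The ratio of the summed counts was 1.01 with an exact 95% interval of 0.0128 to 79.0, which covers counting error only. A difference in EYA2 was not detectable at this depth.

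DACH1 was weakly counted, yet the 2 groups were far apart. It spans chr13:71437966-71867192 on the minus strand and none of its exonic bases are shared with another gene. It was read 39 and 37 times in the controls but 7 and 5 times after knockdown, or 1.94 ± 0.0173 against 0.309 ± 0.0691 CPM (SD, n = 2), which is 15.9% of the control. The ratio of summed counts, 12 against 76 and scaled to library size, was 0.159, with an exact 95% interval of 0.0787 to 0.294 for counting error alone. The fitted log2 fold change was -2.63 (SE 0.433), and 0.484% of all tested genes had a lower one. DACH1 passed the filter on low counts only through its 2 shNC libraries, since neither shMETTL14 library reached 10 counts. A filter asking for 10 counts in every library removed it. In the other 6 alternatives its value ran from -2.70 to -2.62, and from -2.87 to -2.41 as each library was left out.

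**Figure D2:**
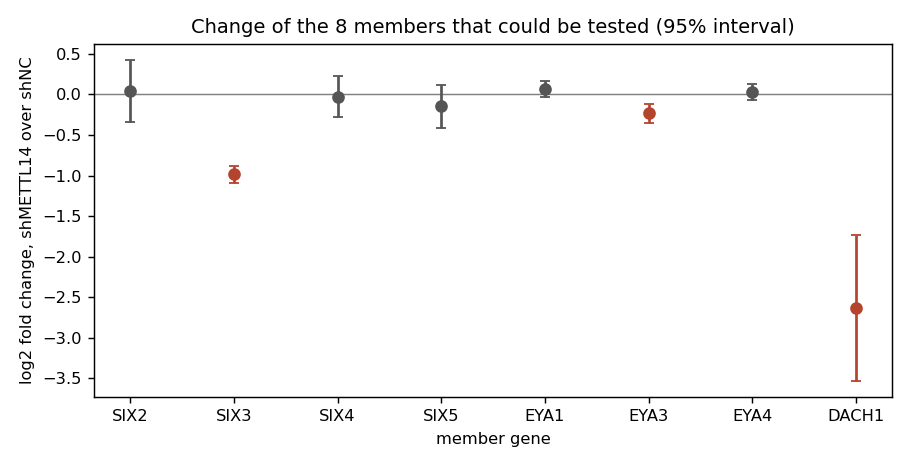
Log2 fold change of the 8 tested members, shMETTL14 over shNC, with bars for the 95% interval of the edgeR fit and red for the 3 that passed an adjusted p of 0.05. SIX3 at -0.98, EYA3 at -0.23 and DACH1 at -2.63 lie below 0, while SIX2, SIX4, EYA1 and EYA4 lie near 0 with a sign that turned under at least 1 alternative scaling or without 1 library.

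Gene length was taken into account to set members against each other, by dividing CPM by the kilobases of exon of each gene. All annotated exons were merged for this, which gave 8968 bases for EYA4, 9418 for EYA1 and 2523 for SIX3. The transcript with the longest coding sequence held 2892, 3938 and 2523 bases of these. That length would raise EYA4 and EYA1 but not SIX3, so the order of members depends on the length used. On the merged exons SIX3 stood well above every other member, at 43.1 ± 0.948 CPM per kb in shNC and 21.8 ± 0.207 in shMETTL14 (SD, n = 2). EYA4 followed with 10.8 ± 0.0076 and 11.0 ± 0.179, EYA3 with 9.92 ± 0.137 and 8.46 ± 0.322, and EYA1 with 9.35 ± 0.0233 and 9.79 ± 0.117. On the merged exons the order of EYA3 and EYA1 differed between the groups, and this too depends on the length used. EYA3 was the higher in both shNC libraries, where it did not go below 9.83 and EYA1 stood at 9.37 and 9.33. EYA1 was the higher in both shMETTL14 libraries, at 9.87 and 9.71 against 8.23 and 8.69.

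The remaining members were much lower per length. SIX5 had 3.16 ± 0.134 CPM per kb in shNC and 2.86 ± 0.424 in shMETTL14, SIX2 had 2.09 ± 0.0721 and 2.15 ± 0.337, and SIX4 had 1.5 ± 0.0425 and 1.47 ± 0.0259. SIX5 and SIX2 came close in shMETTL14, where SIX2 reached 2.39 in library 1 and SIX5 2.56. DACH1 stood at 0.361 ± 0.00321 and 0.0573 ± 0.0128, and EYA2 at 0.00693 ± 0.00981 and 0.00706 ± 0.00998.

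**Figure D3:**
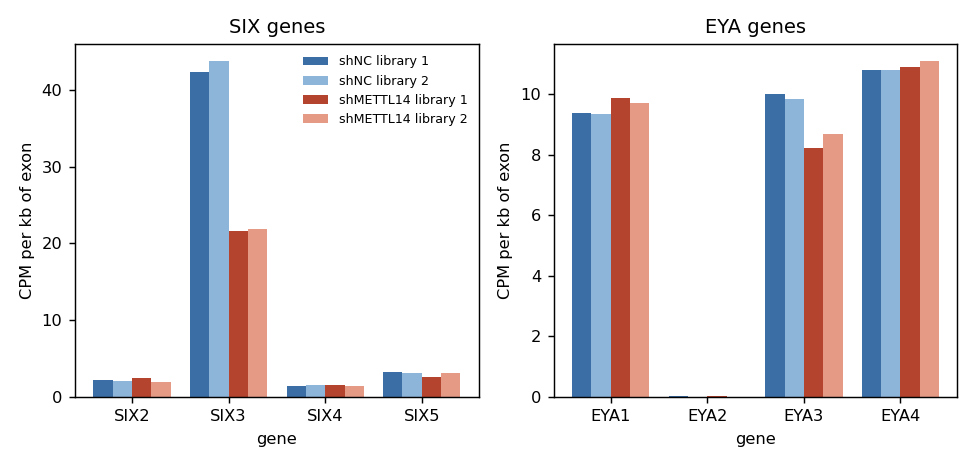
CPM per kilobase of exon in each library for the SIX-family genes (left) and the EYA genes (right), on separate linear axes that start at 0, with 1 bar per library. SIX3 towers over the other SIX-family genes in both groups. On these merged exon lengths EYA1, EYA3 and EYA4 lie in the same range, and EYA2 is close to 0.

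Summed per length, SIX2 to SIX5 stood at 49.8 ± 0.784 CPM per kb in shNC and 28.3 ± 0.268 in shMETTL14, or 56.7% of the control, a sum that mostly follows SIX3. SIX3 made up 86.1% and 86.8% of it in the shNC libraries and 77.1% in each shMETTL14 library. The sum of EYA1 to EYA4 was 30.1 ± 0.163 and 29.3 ± 0.374 CPM per kb, or 97.3% of the control. Within it EYA3 took 33.2% and 32.8% in shNC and 28.4% and 29.4% in shMETTL14. On the merged exons the SIX-family sum was thus 49.8 and the EYA sum 30.1 CPM per kb in shNC. In shMETTL14 they were 28.3 and 29.3. The merged length exceeds the transcript with the longest coding sequence in EYA4 (8968 and 2892 bases) and EYA1 (9418 and 3938) but not in SIX3. How the SIX-family and EYA sums stand to each other therefore depends on the length used. These are sums of RNA only, and the amounts of the proteins or of any complex between them were not measured.

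The members were compared on features of their transcripts that the choice of the family did not use. GGACT is the sequence most often quoted for m6A. It was counted on the sense strand of the transcript with the longest coding sequence of each gene. Whether a copy is methylated was not considered. That transcript held 2892 of 8968 exonic bases for EYA4, 3938 of 9418 for EYA1 and 2986 of 5389 for DACH1. For SIX3 it held all 2523 and for EYA3 6085 of 6483, so the densities cover unlike shares of the genes. SIX3 held 1 copy, or 0.40 per kb, the second lowest density of the 9 after SIX4 at 0.32. DACH1 held 6 copies at 2.01 per kb and EYA3 held 6 at 0.99 per kb, beside a median of 0.939 per kb over 12832 tested genes with a coding transcript. EYA2 had the highest density, 2.22 per kb, and EYA4 had 1.73. The 3 members that passed had 0.40, 0.99 and 2.01 copies per kb, and any link between density and change was not tested. GC content ranged from 41.9% in SIX4 to 68.0% in SIX5, with 53.8% in SIX3, 46.3% in EYA3 and 50.3% in DACH1, around a median of 49.5%.

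The genes within 100 kb of a member were counted next, to see what shares its position. Of 67 such genes 19 were tested and 10 passed, 4 higher and 6 lower, where 52.5% of all tested genes passed. The median log2 fold change of the 19 was -0.30 against -0.00 for all tested genes. All 3 tested neighbours of SIX3 were noncoding genes and all 3 were lower. SIX3-AS1, which starts 25 bases from SIX3 on the opposite strand, had 88 and 100 counts in shNC and 42 and 52 in shMETTL14, a log2 fold change of -0.99 (SE 0.218, edgeR adjusted p = 6.2e-04). LINC01833, which starts 2.7 kb before SIX3 on the minus strand, had 233 and 186 counts against 41 and 41 (-2.34, SE 0.18, edgeR adjusted p = 4.3e-10). AC012354.1, which starts 12.8 kb beyond the SIX3 start, had 556 and 542 counts against 249 and 223 (-1.21, SE 0.0929, edgeR adjusted p = 4.4e-10). In each of these genes both knockdown libraries lay far below both controls, as for SIX3, whereas SIX2 at the other end of the same interval did not pass.

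**Figure D4:**
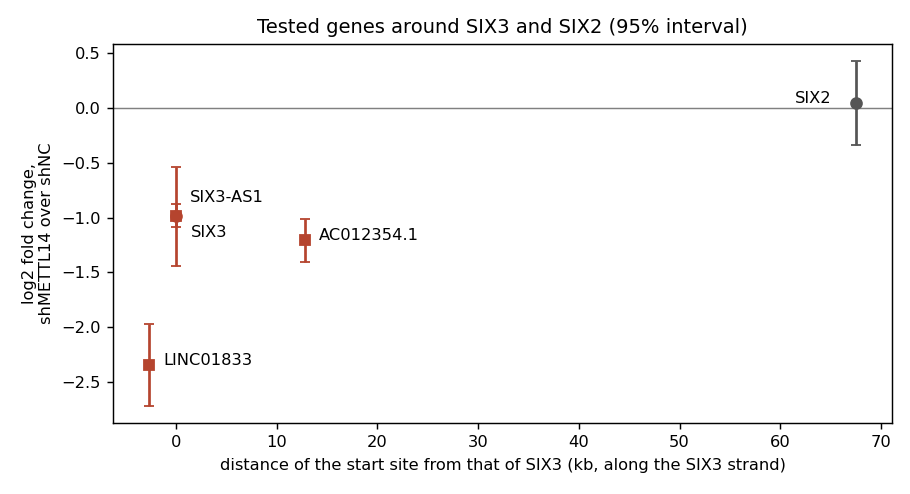
Log2 fold change of the tested genes around SIX3 and SIX2, with bars for the 95% interval, against the distance of each start site from that of SIX3 in kb. The symbols of SIX3 and SIX3-AS1 overlap near 0 kb, and LINC01833, SIX3, SIX3-AS1 and AC012354.1 all lie below 0, from -2.34 to -0.98, while SIX2 lies at 0.04 with an interval across 0.

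The same 3 genes are the tested neighbours of SIX2. Near EYA3, RPA2, a subunit of the single-strand DNA binding protein RPA, was higher (0.27, edgeR adjusted p = 1.3e-04), as was the pseudogene SPCS2P4 (0.99, edgeR adjusted p = 3.9e-06), and SMPDL3B was lower (-1.5, edgeR adjusted p = 0.038) on 12 and 14 against 3 and 6 counts, where only the shNC libraries reached the 10 counts of the filter. Near SIX5, DMWD (0.33, edgeR adjusted p = 0.031) and SNRPD2 (0.20, edgeR adjusted p = 1.2e-03) were higher. DMPK, with 90 and 88 counts against 134 and 97, did not pass (0.38, edgeR adjusted p = 0.081). Near SIX4, MNAT1 was lower (-0.32, edgeR adjusted p = 4.6e-03). Near EYA2, ZMYND8 was lower (-0.25, edgeR adjusted p = 6.8e-05). The SMPDL3B, DMWD and MNAT1 calls were lost in DESeq2. Leaving out any library or the filter ended that of SMPDL3B, upper-quartile scaling, library size alone or leaving out shNC library 2 or shMETTL14 library 1 that of DMWD, and leaving out shMETTL14 library 2 that of MNAT1. No neighbour of EYA1, EYA4 or DACH1 had enough counts to test.

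Relatives of the members in the same network were listed next: SIX6, DACH2, the PAX genes and the SKI proteins, which are related to DACH1. Of these 13 genes 5 were tested and 4 passed, 2 higher and 2 lower, where 52.5% of all tested genes passed. The median log2 fold change of the 5 was -0.21. Of the DACH1 relatives, SKI was higher and SKIL, a related corepressor of TGF-beta signalling, was lower. SKI had 738 and 699 counts in shNC and 958 and 939 in shMETTL14, a log2 fold change of 0.41 (SE 0.065, edgeR adjusted p = 1.6e-05). SKIL had 946 and 962 against 813 and 826, a log2 fold change of -0.21 (SE 0.0644, edgeR adjusted p = 9.1e-03). PAX5 was higher at 109 and 98 against 192 and 140 counts (0.69, edgeR adjusted p = 1.2e-03), and PAX8 lower at 86 and 84 against 60 and 50 counts (-0.62, edgeR adjusted p = 0.017). PAX6, the classic upstream gene of the network in the eye, was weakly counted at 11 and 14 against 10 and 5 and did not pass (-0.72, edgeR adjusted p = 0.28). The PAX8 and SKIL calls were lost in DESeq2 and without shNC library 2, and each also without 1 shMETTL14 library (library 2 for PAX8, library 1 for SKIL). SIX6, DACH2, PAX1, PAX2, PAX3, PAX4, PAX7 and PAX9 had at most 1 count in any library.

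All 13 corepressors and partners known to work with SIX-family, EYA or DACH proteins were tested. Of these 9 passed, 5 higher and 4 lower, where 52.5% of all tested genes passed. The median log2 fold change of the 13 was 0.02. GMNN, the replication licensing inhibitor geminin that binds SIX3, was higher, with 1223 and 1266 counts in shNC and 1797 and 1817 in shMETTL14 (0.55, SE 0.0521, edgeR adjusted p = 1.3e-08). TLE4, one of the Groucho corepressors that SIX3 recruits, was higher at 2224 and 2006 against 2693 and 2544 counts (0.32, edgeR adjusted p = 5.8e-06). The related TLE5 was lower (-0.15, edgeR adjusted p = 2.8e-03). TLE1, TLE2 and TLE3 did not pass, at 0.02, -0.30 and -0.02.

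Among the others, the nuclear receptor gene NR4A3 (0.47, edgeR adjusted p = 2.1e-03) and SMAD4 (0.29, edgeR adjusted p = 1.2e-04) were higher. SOBP, a SIX-binding protein gene, was lower at 543 and 494 against 434 and 416 counts (-0.28, edgeR adjusted p = 8.0e-03). Of the corepressor complex genes, HDAC3 (-0.24, edgeR adjusted p = 3.8e-04) and NCOR1 (-0.11, edgeR adjusted p = 0.047) were lower, and HDAC1 was higher (0.12, edgeR adjusted p = 0.034). The small HDAC1 difference lost its call in most alternatives, scaling by upper quartile or library size among them, and that of NCOR1 in DESeq2, with no filter, and without shNC library 1 or either shMETTL14 library. The calls of SOBP and NR4A3 were lost in DESeq2, and those of SOBP and TLE5 without shMETTL14 library 2. The SOBP call was lost without shNC library 1 as well. The list moved in both directions, with GMNN the largest change among those that passed.

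The EYA phosphatase circle held 12 genes. Their products are substrates, kinases or phosphatase partners of EYA proteins, or were listed beside them, as MDC1 and FZR1 were. Of the 12 genes 11 were tested and 6 passed, 3 higher and 3 lower, where 52.5% of all tested genes passed. The median log2 fold change of the 11 was 0.05. H2AX, whose tyrosine-phosphorylated protein is an EYA substrate, was higher at 4484 and 4481 counts in shNC against 5609 and 5657 in shMETTL14 (0.34, edgeR adjusted p = 3.4e-07). BAZ1B, the kinase that places that phosphate, was higher by the same measure (0.34, edgeR adjusted p = 2.7e-07). MDC1, which reads damaged chromatin through H2AX, was lower (-0.20, edgeR adjusted p = 8.7e-04).

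PPP2CA, the catalytic subunit of protein phosphatase 2A, was higher at 2171 and 2195 against 3294 and 3267 counts (0.60, edgeR adjusted p = 2.4e-10). The mitotic kinase PLK1 was lower at 2985 and 2729 against 2295 and 2280 counts (-0.31, edgeR adjusted p = 4.2e-06), as was FZR1, an activator of the anaphase-promoting complex (-0.20, edgeR adjusted p = 5.0e-03). The FZR1 call was lost in DESeq2 and without shMETTL14 library 1.

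The last list held 19 genes reported as targets of SIX-family factors in other tissues. Of these 9 were tested and 5 passed, 2 higher and 3 lower, where 52.5% of all tested genes passed. The median log2 fold change of the 9 was 0.07. PROX1, a homeobox gene that SIX3 activates in the lens, had 3098 and 2896 counts in shNC and 1542 and 1677 in shMETTL14 (-0.89, SE 0.0496, edgeR adjusted p = 2.6e-12). Both knockdown libraries were thus far below the controls. CCNA1, the germline-type A cyclin, fell from 31 and 37 counts to 0 and 2, a ratio of 0.0296 with an exact 95% interval of 0.00351 to 0.111 for counting error alone (edgeR adjusted p = 2.5e-06). CCNA1 passed the filter on low counts only through its shNC libraries. The ion transport gene SLC12A2 (-0.25, edgeR adjusted p = 0.017) was lower by less, and its call was lost in DESeq2 and without shNC library 1, shMETTL14 library 1 or shMETTL14 library 2.

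In the other direction, VEGFC, a lymphatic growth factor, had 94 counts in each shNC library and 200 and 184 in shMETTL14 (1.04, SE 0.145, edgeR adjusted p = 3.2e-06). IGFBP5, an insulin-like growth factor binding protein, had 1938 and 1788 against 2489 and 2397 counts (0.40, SE 0.0456, edgeR adjusted p = 1.8e-07). CCND1, EZR, SOX2 and DMPK did not pass. The myogenic targets MYOG, MYOD1 and MYF5 and the forebrain targets SHH, WNT1 and WNT8B had too few counts to test, as had GDNF, SALL1, CITED1 and OSR1.

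**Figure D5:**
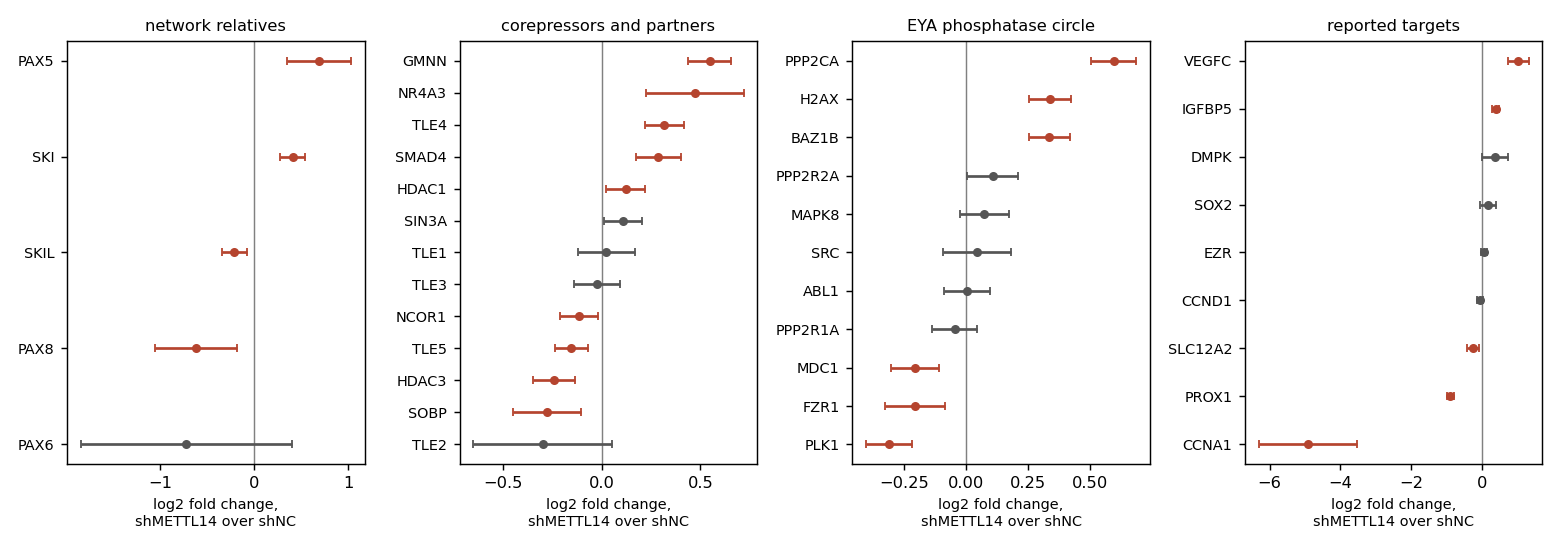
Log2 fold change (shMETTL14 over shNC) of the tested genes of the 4 lists around the family, with bars for the 95% interval of the edgeR fit, red for an adjusted p under 0.05, and a separate axis range in each panel. Every list holds genes on both sides of 0, and the long bar of CCNA1 reflects 0 and 2 counts in the shMETTL14 libraries, so its fitted value is not a bound.

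The 2 members with the highest mean CPM were EYA4 and EYA1, and the tested genes closest to them were found by the Euclidean distance of their log2 CPM over the 4 libraries. ZNF451 (0.0517), NUS1 (0.0551) and CCP110 (0.0647) lay nearest to EYA4. GID8 (0.0357), IBTK (0.0384) and GTPBP1 (0.0387) lay nearest to EYA1. With 4 libraries this measure mostly matches genes of equal level, and nothing about function is read from it.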

How the data were processed

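RNA of SK-N-BE(2) cells was extracted from 2 shNC and 2 shMETTL14 samples, made into mRNA libraries and read as 150-base pairs. Raw counts per Ensembl gene were deposited by the authors, whose processing notes name HISAT2 2.1.0, StringTie 1.3.6, HTSeq 0.13.5 and edgeR, and the GRCh38/hg38 build. Neither the strand setting nor the release of the annotation is given in the sources used here, and gene positions and exon lengths were taken from GENCODE 29. Groups and replicate numbers came from the sample labels.

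Lines that name no gene were left out, and held 19.1% to 19.9% of all counts per library, of which ambiguous reads made up 5.01 to 5.32 percentage points. Counts in genes ranged from 18925786 to 19886214, and the table held 0 columns of other samples. Of 60671 gene IDs, 42020 matched a symbol, and 16309 passed edgeR's default filter (a minimum count of 10 in 2 libraries and a total of 15). They were fitted with the quasi-likelihood F-test of edgeR 4.0.16 (R 4.3.3) on all 4 libraries with TMM scaling and group as the only term, with Benjamini-Hochberg adjustment over all genes tested and a threshold of 0.05. SE is the size of the log2 fold change divided by the square root of F. Levels are CPM on TMM-scaled sizes, divided by kilobases of merged annotated exon where genes are compared. Ratios of low counts have exact Clopper-Pearson intervals. Intervals on counts and the limit of 3 counts per library cover counting error only. An exact permutation test of 2 against 2 libraries could not go below p = 0.333, so none was used. Pairs of libraries within a group differed by more than sampling noise (mean chi-square per gene 2.66 for shNC and 2.21 for shMETTL14). The quantity that edgeR calls the biological coefficient of variation was 3.45%. This spread between libraries may be technical, and the adjusted p-values rest on it.

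Alternatives were RLE, upper-quartile and library-size scaling, no filter, at least 10 counts in every library, DESeq2 1.42.0, the replicate number as a block, and leaving out each library, where the lone library of a group is assumed to vary like the other group. Named genes were all members, METTL14, and up to 4 called genes of each list in each direction by size of change, plus those sharing a locus with a member. HDAC1, MNAT1, ZMYND8 and the genes that did not pass were named after their values were seen, to complete their lists. The members and all lists were chosen with earlier results of these data known. Some genes of the lists are not reported here and were left out of every list count.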

Additional observations from a re-analysis of the deposited data

How the results depend on the processing

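SIX3, EYA3 and DACH1 kept their direction and their calls under every alternative that tested them, and no other member passed in any. The number of genes called was 8561, and it ranged from 7996 to 8926 under scalings, filters and the replicate block, from 7287 to 7458 as each library was left out, and was 5538 with DESeq2. DESeq2 also called 2 rather than 4 network relatives and 5 rather than 9 corepressors and partners. Leaving out 1 library gave 2 to 4 network relatives, with 2 without shNC library 2, and 5 to 10 corepressors and partners, with 5 without shMETTL14 library 2. In all, 72 of 77 such counts stayed within 1.5 times the reported one, and the cause of the others was not tested. Signs turned only for members that had not passed: SIX2 was -0.027 under upper-quartile scaling, -0.004 under library size alone and -0.126 without shMETTL14 library 1 (range -0.126 to 0.2 as each library was left out), SIX4 was 0.005 without shNC library 2 (range -0.062 to 0.005), EYA1 was -0.001 under upper-quartile scaling, and EYA4 was -0.041 under upper-quartile scaling and -0.019 under library size alone. Upper-quartile scaling moved the median of all genes by -0.068 and library size alone by -0.045 on the log2 scale, and the share of calls that were higher went from 51.8% to 41.7% and 44.9%.

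The labels give both groups replicate numbers 1 and 2. Across genes, libraries of equal number did not deviate from their group means together (Pearson 0.00483, Spearman 0.0233). All tested genes counted alike in these correlations, weakly counted ones included. Whether libraries of equal number were prepared together is therefore not known, and the main fit used no pairing. The replicate block called 8926 genes, 3 members, 4 network relatives, 10 corepressors and partners, 6 genes of the phosphatase circle, 5 reported targets and 10 neighbours.

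With 2 libraries a group, depth limits the weakly counted genes most: EYA2 and most PAX genes could not be tested, DACH1 and CCNA1 rest on few counts in 1 group, and the intervals of SIX2, SIX4 and SIX5 reach from -0.41 to 0.42 on the log2 scale.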
